A study of Homo sapiens with 6 samples.

Results

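Collagens and the genes that modify them were examined in ARPE-19 cells, a human line derived from retinal pigment epithelium (RPE). The genes were chosen by name: protein-coding genes whose symbol opens with COL and a digit, LOX, PLOD, P4HA or COLGALT, together with named propeptidases, prolyl 3-hydroxylases, chaperones and fibril-binding proteins. Of 75 annotated genes that met this rule, 32 were among the 7758 genes of the deposited table, and 17 of the 32 encode collagen chains. The other 43, such as COL3A1, COL4A1, COL18A1, BMP1 and the PLOD genes, were not analysed here. The table holds only genes that the authors' own test had called different between the groups. A difference was thus a condition for entry, and no level can be given for an unlisted gene.

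One group carried a hairpin RNA aimed at METTL3 (sh-METTL3, 3 libraries) and the other a control hairpin (sh-Control, 3 libraries). METTL3 is the catalytic subunit of the complex that methylates adenosines of mRNA at the N6 position (m6A). Lentivirus carried the hairpins into the cells, and drug selection kept those with a stable insert. Lipopolysaccharide (LPS), a bacterial cell wall component that provokes inflammation, was given to both groups alike (1 μg/ml, 24 h). No cells without LPS were analysed here. The labels do not say whether the libraries of a group are separate infections or 1 selected line, so the p-values measure only the spread between these libraries, which may be technical.

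The values are scaled counts, that is, the reads of a gene divided by 1 size factor per library. Reads on listed genes numbered from 10898434 to 17750052 per library, of which the 32 genes held between 1.67% and 1.75% in sh-Control and between 1.03% and 1.12% in sh-METTL3. METTL3 itself stood at 1154, 1108 and 1091 in the sh-Control libraries and at 966, 1001 and 765 in the sh-METTL3 libraries, with a log2 fold change of -0.30 (SE 0.0965, adjusted p 0.032 by limma). These are RNA values. The paper reported less METTL3 protein by western blotting and a lower m6A content of RNA in silenced ARPE-19 cells. In a principal component analysis of all listed genes, the second component (3.36% of the variance) set sh-METTL3 replicate 3 apart.

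Collagens are built from chains that wind into triple helices and assemble outside the cell. Fibrillar chains form cable-like fibrils, type IV chains form the sheet of basement membranes, and type VII forms the anchoring fibrils below epithelia. Inside the cell the prolines and lysines of the chains are hydroxylated and chaperones guard the helix. After secretion the propeptides are cut off and lysyl oxidases cross-link the fibrils. The RPE rests on Bruch's membrane, a layered matrix that contains several of these collagens.

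COL5A1 and ADAMTS2 had the largest rises among the 32 genes, from a few reads in sh-Control to mean scaled counts of 5393 and 702 in sh-METTL3. Their 5′ flanks are shown because these genes went from near-silence to expression, with every CG dinucleotide in capitals. They are RefSeq promoter sequences on GRCh38.p14 that end before the first annotated base of the gene. Reads were counted per gene, so which start was used was not measured. The COL5A1 flank lies at chr9:134641553-134641773 on the plus strand and the ADAMTS2 flank at chr5:179345462-179345711 on the minus strand.
COL5A1: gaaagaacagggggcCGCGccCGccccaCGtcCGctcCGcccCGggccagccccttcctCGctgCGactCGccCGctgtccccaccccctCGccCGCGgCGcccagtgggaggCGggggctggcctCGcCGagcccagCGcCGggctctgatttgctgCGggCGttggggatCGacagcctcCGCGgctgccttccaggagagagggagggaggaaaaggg
ADAMTS2: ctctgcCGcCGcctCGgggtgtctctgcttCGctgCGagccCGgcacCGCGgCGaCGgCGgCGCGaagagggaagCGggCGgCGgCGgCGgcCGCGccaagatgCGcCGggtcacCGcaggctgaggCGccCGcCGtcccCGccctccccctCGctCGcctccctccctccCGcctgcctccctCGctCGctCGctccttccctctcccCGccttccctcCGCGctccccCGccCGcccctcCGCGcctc

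Both flanks were rich in CG. In the full window of 250 bases COL5A1 held 29 CG dinucleotides, more than 86.2% of 27305 RefSeq promoters (1 per gene), and ADAMTS2 held 40, more than 97.9% of them. Such counts were not particular to genes that rose. Of the genes that were lower in sh-METTL3, COL4A2 held 40, LOXL4 37 and COL8A2 35, while others held fewer than COL5A1. The median CG count was 21 over the 24 of the 32 genes with a promoter among these, and 11 over all promoters. Some of the 24 windows lie partly inside the annotated gene, and those of COL4A2 and COL9A2 lie wholly inside it. GGGCGG, searched on both strands, was present in 66.7% of the 24 windows and in 42.3% of all windows. TATAAA was present in 16.7% (4 of the 24) and 11.1%, and CCAAT in 20.8% (5 of the 24) and 33.0%, also on both strands. The median GC content was 70% in the 24 windows and 58% in all windows, and the motif shares were not adjusted for it. These motif counts describe letters, and neither methylation nor factor binding was measured here.

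Apart from these genes, most of the set was lower in sh-METTL3 cells. By limma, 25 of the 32 genes were lower and 7 were higher at an adjusted p of at most 0.05, and 31 of 32 had no overlap between sh-Control and sh-METTL3 libraries. Among all listed genes 97.9% passed the same threshold, 51.3% as lower and 46.6% as higher, and 98.5% had no overlap. Passing and separation are therefore shared by nearly every listed gene. Of the 32 genes, 78.1% were lower, against 55.1% of the listed protein-coding genes. Counts within single roles below are small and are to be read against these shares. The median log2 fold change was -0.95 for the 32 genes, -1.32 for the 17 chains and -0.62 for the 15 enzymes and helpers, against -0.21 for all listed genes. A difference of at least 1 on the log2 scale was reached by 53.1% of the 32 genes and by 30.7% of all listed genes. In bulk RNA, fewer cells expressing a gene and less RNA per cell cannot be told apart.

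**Figure D1:**
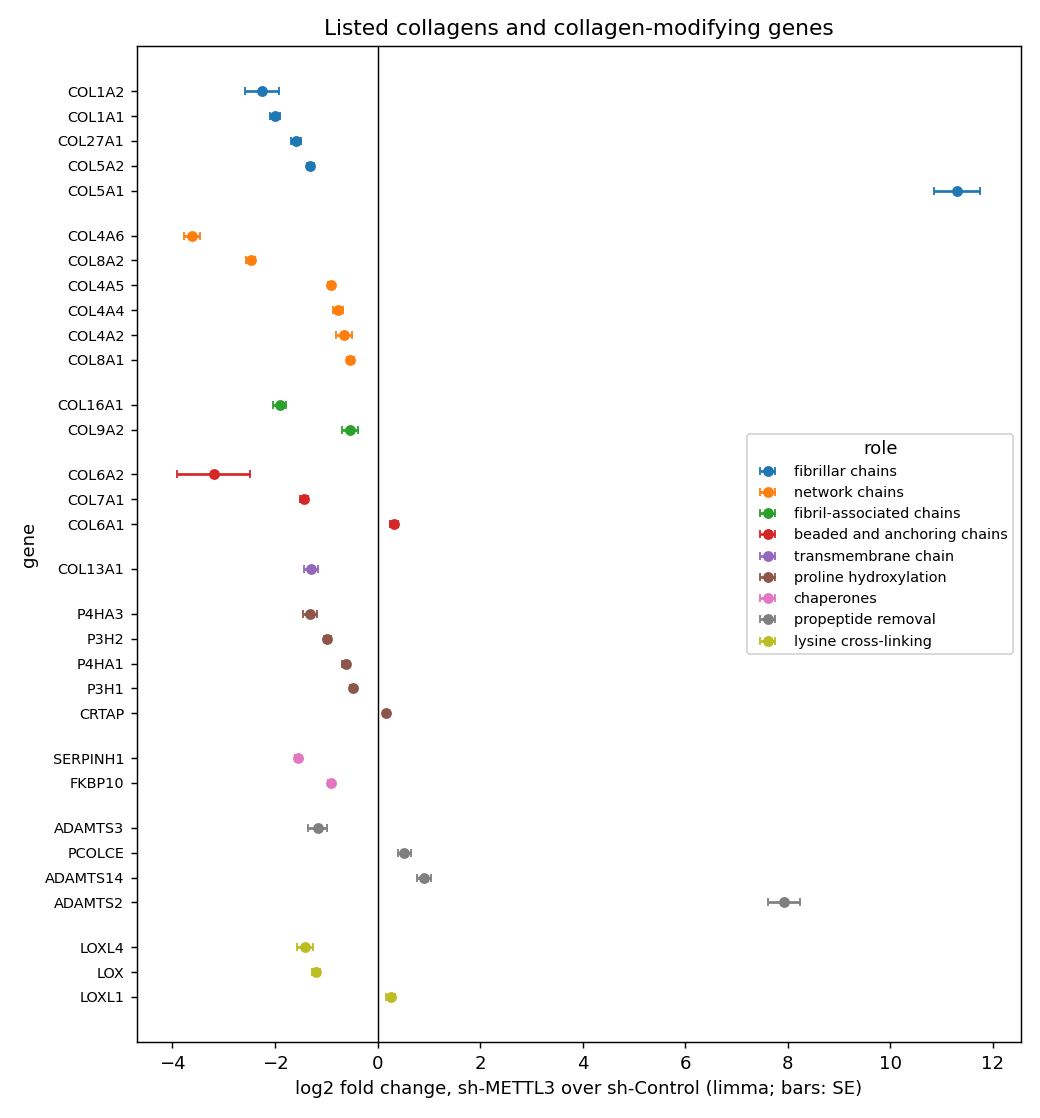
Log2 fold change (sh-METTL3 over sh-Control, x axis) of 31 of the genes by limma, grouped by role, with bars for the SE. COL5A1 at 11.31 and ADAMTS2 at 7.92 lie far to the right, and most other genes lie left of 0.

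COL5A1 encodes the α1 chain of type V collagen, a minor fibrillar collagen that starts type I fibrils and limits their width. The gene (ENSG00000130635, chromosome 9, 134641774 to 134844843, plus strand) had 5, 0 and 1 reads in sh-Control replicates 1, 2 and 3, that is, scaled counts of 3.99, 0 and 0.935. In the sh-METTL3 libraries its scaled counts were 5173, 5755 and 5252. The sh-METTL3 libraries were close to each other, and the sh-Control libraries lay at the limit of counting. The means were 1.64 ± 2.09 and 5393 ± 316 (SD, n = 3 each). The log2 fold change was 11.31 (SE 0.448, adjusted p 9.88e-08 by limma). This size depends on the pseudocount of 1 and on the few sh-Control reads: it was 12.81 with a pseudocount of 0.1, 11.92 without sh-Control replicate 1 and 10.76 without sh-Control replicate 2. Per kilobase of exon COL5A1 had the lowest level of the 17 chains in sh-Control, and it made up 6.26%, 6.68% and 7.12% of their summed level in the sh-METTL3 libraries.

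The other 4 listed fibrillar chains were lower, and the median of the 5 (of 11 annotated) was -1.59. COL1A1 (ENSG00000108821, chromosome 17, 50183289 to 50201632, minus strand), the main chain of type I collagen, stood at 6799, 7488 and 7858 in sh-Control and at 1664, 2124 and 1755 in sh-METTL3. The highest sh-METTL3 library was far below the lowest sh-Control library. The means of COL1A1 were 7382 ± 538 and 1848 ± 243 (SD, n = 3 each), and its log2 fold change was -2.0 (SE 0.09, adjusted p 1.91e-07 by limma). COL1A2, its partner chain, was weakly expressed, at 39.1, 58.6 and 68.2 in sh-Control and 6.53, 12.9 and 13.4 in sh-METTL3. Its means were 55.3 ± 14.9 and 11 ± 3.84 (SD, n = 3 each), with a log2 fold change of -2.26 (SE 0.337, adjusted p 0.000475 by limma). COL27A1, a fibrillar chain of cartilage, stood at 1106, 1138 and 1084 in sh-Control and at 348, 339 and 419 in sh-METTL3, without overlap. Its means were 1109 ± 26.8 and 369 ± 43.7 (SD, n = 3 each), with a log2 fold change of -1.59 (SE 0.0904, adjusted p 8.37e-07 by limma). COL5A2, the partner of COL5A1 in type V collagen, fell from 2910 ± 259.8 to 1166 ± 20.5 (SD, n = 3 each), by limma -1.32 on the log2 scale.

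The α5 and α6 chains of type IV collagen are encoded head to head on chromosome X. Most of the interval between their genes is shown because both genes fell, by different amounts, and their annotated starts lie close together. COL4A6 (108155607 to 108439497, minus strand) and COL4A5 (108439844 to 108697545, plus strand) are separated by 346 bases in GENCODE release 29. The RefSeq flanks (GRCh38.p14) lie at chrX:108439588-108439837 on the plus strand for COL4A5 and chrX:108439498-108439708 on the minus strand for COL4A6. Capitals mark the 121 bases that both flanks hold, read from opposite strands.
COL4A5: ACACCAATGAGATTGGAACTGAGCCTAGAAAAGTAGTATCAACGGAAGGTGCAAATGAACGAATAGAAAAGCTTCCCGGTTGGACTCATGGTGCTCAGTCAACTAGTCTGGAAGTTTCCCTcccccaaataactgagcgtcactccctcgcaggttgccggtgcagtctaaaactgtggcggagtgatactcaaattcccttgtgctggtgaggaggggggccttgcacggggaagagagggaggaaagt
COL4A6: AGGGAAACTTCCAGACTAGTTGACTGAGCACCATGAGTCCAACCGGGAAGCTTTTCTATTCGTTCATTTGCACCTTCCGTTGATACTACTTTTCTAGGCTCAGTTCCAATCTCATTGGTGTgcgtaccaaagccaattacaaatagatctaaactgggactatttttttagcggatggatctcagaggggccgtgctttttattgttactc

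COL4A6 had the largest fall of the 32 genes on the log2 scale with a pseudocount of 1 and all libraries, while COL6A2, with few reads, fell further with a pseudocount of 0.1 (-4.59 against -3.64) and without sh-METTL3 replicate 2 (-4.14 against -3.48). It stood at 775, 766 and 738 in sh-Control and at 59.7, 50.3 and 75 in sh-METTL3. Its means were 759 ± 19.4 and 61.7 ± 12.5 (SD, n = 3 each), with a log2 fold change of -3.62 (SE 0.148, adjusted p 1.16e-07 by limma). COL4A5 stood at 3381, 3411 and 3535 in sh-Control and at 1837, 1878 and 1760 in sh-METTL3, with a log2 fold change of -0.92 (SE 0.0512, adjusted p 7.69e-07 by limma). Per kilobase of exon, COL4A5 exceeded COL4A6 by 3.41, 3.48 and 3.75 times in the sh-Control libraries and by 24.1, 29.2 and 18.4 times in the sh-METTL3 libraries. Every sh-METTL3 library had the higher ratio. In the full windows of 250 bases COL4A5 held 8 CG dinucleotides and COL4A6 held 7.

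All 6 listed network-forming chains were lower. COL4A2 (ENSG00000134871, chromosome 13, 110305812 to 110513209, plus strand) encodes the α2 chain of the common basement membrane collagen. It stood at 49408, 54909 and 52111 in sh-Control and at 37651, 39897 and 24450 in sh-METTL3, with means of 52142 ± 2751 and 33999 ± 8346 (SD, n = 3 each). The groups did not overlap, but sh-METTL3 replicate 3 was far below its fellow replicates. The log2 fold change was -0.65 (SE 0.157, adjusted p 0.0083 by limma), and -0.43 (adjusted p 0.000779 by limma) without that library. COL4A4, a chain of the α3α4α5 network, fell from 2145 ± 51 to 1260 ± 182 (SD, n = 3 each), by limma -0.78 on the log2 scale. The short chains COL8A1 and COL8A2 build the lattice of Descemet's membrane in the eye. COL8A2 stood at 1470, 1536 and 1444 in sh-Control and at 258, 239.7 and 302 in sh-METTL3. Its means were 1484 ± 47.5 and 267 ± 32.1 (SD, n = 3 each), with a log2 fold change of -2.48 (SE 0.0924, adjusted p 6.92e-08 by limma). COL8A1 fell less, from 45675 ± 981 to 31594 ± 1396 (SD, n = 3 each), by limma -0.53 on the log2 scale.

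The remaining chains were lower as well, except COL6A1. COL7A1, the chain of the anchoring fibrils, stood at 19182, 19423 and 18712 in sh-Control and at 6393, 6987 and 7890 in sh-METTL3. Its means were 19105 ± 362 and 7090 ± 754 (SD, n = 3 each), with a log2 fold change of -1.44 (SE 0.0742, adjusted p 4.42e-07 by limma). The fibril-associated chain COL16A1 stood at 728, 748 and 763 in sh-Control and at 189, 245 and 167 in sh-METTL3. In both genes every sh-METTL3 library lay below every sh-Control library. The means of COL16A1 were 747 ± 17.3 and 200.4 ± 40.1 (SD, n = 3 each), with a log2 fold change of -1.91 (SE 0.131, adjusted p 2.88e-06 by limma). COL13A1, a transmembrane collagen of adhesion sites, fell from 363 ± 39 to 147 ± 16.4 (SD, n = 3 each), by limma -1.30 on the log2 scale. COL9A2, a fibril-associated chain of cartilage and vitreous, fell from 160.2 ± 16.4 to 110.3 ± 13.1 (SD, n = 3 each). Its log2 fold change of -0.54 had an adjusted p of 0.018 by limma and did not pass in 3 of 14 alternatives, among them those without sh-Control replicate 2 (adjusted p 0.0922) and without sh-METTL3 replicate 1 (adjusted p 0.0559).

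Type VI chains form beaded filaments around cells. COL6A1 stood at 841, 902 and 779.6 in sh-Control and at 1091, 1058 and 999 in sh-METTL3, higher in every sh-METTL3 library. Its means were 841 ± 61.3 and 1049 ± 46.5 (SD, n = 3 each), with a log2 fold change of 0.32 (SE 0.073, adjusted p 0.00604 by limma). COL6A2, its neighbour on chromosome 21, had 32, 26 and 22 reads in sh-Control and 1, 7 and 0 reads in sh-METTL3. Its log2 fold change of -3.19 (SE 0.711, adjusted p 0.00532 by limma) rests on these few reads. It was -4.59 with a pseudocount of 0.1, and it ran from -4.14 without sh-METTL3 replicate 2 to -2.48 without sh-METTL3 replicate 3.

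Chains and subunits that assemble together were compared within each library by their levels per kilobase of exon. The COL5A1 to COL5A2 ratio was at most 0.000995 in sh-Control and was 3, 3.3 and 2.94 in sh-METTL3, so the order of these chains differed between the groups. COL1A1 exceeded COL1A2 by 198, 145 and 131 times in sh-Control and by 289.6, 187 and 148 times in sh-METTL3, and these ranges overlapped. COL8A1 exceeded COL8A2 by 15.3 ± 0.746 times in sh-Control and by 59.5 ± 9.29 times in sh-METTL3 (SD, n = 3 each). COL6A1 exceeded COL6A2 by 33.2, 36.4 and 38.2 times in sh-Control and by 1178 and 118 times in sh-METTL3 replicates 1 and 2, from 1 and 7 reads of COL6A2. No ratio exists for sh-METTL3 replicate 3, where COL6A2 had 0 reads. CRTAP and P3H1 belong to the same prolyl 3-hydroxylation complex, and their ratio was 2.22 ± 0.0621 in sh-Control and 3.5 ± 0.124 in sh-METTL3 (SD, n = 3 each). These ratios were not tested, and the exonic lengths are unions over all transcripts of a gene.

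**Figure D2:**
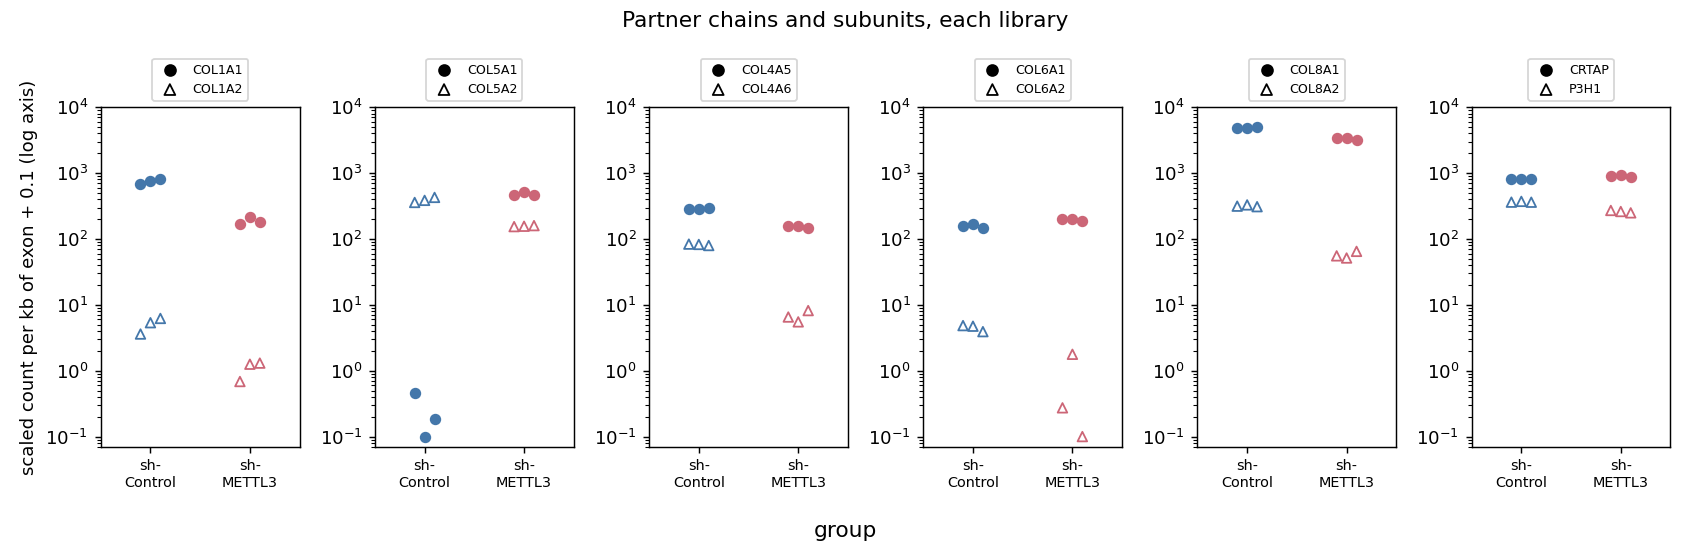
Scaled count per kilobase of exon plus 0.1 (log axis) in each library, for 6 pairs of genes whose products assemble together. COL5A1 lies below COL5A2 in sh-Control and above it in sh-METTL3, COL4A6 and COL8A2 drop further than COL4A5 and COL8A1, and COL1A1 and COL1A2 drop together.

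By level per kilobase, COL8A1 and COL4A2 led the listed chains in both groups. COL8A1 held from 40.3% to 41.8% of the summed level in the sh-Control libraries and from 44.8% to 48.4% in the sh-METTL3 libraries. COL4A2 held from 22.4% to 23.9% and from 19.2% to 26.8%, ranges that overlapped. COL7A1 held from 14.2% to 15.1% and from 7.81% to 10.8%, and COL1A1 from 6.05% to 6.72% and from 2.29% to 2.81%, without overlap. The summed level was 11754 ± 266 in sh-Control and 7227 ± 574 in sh-METTL3 (SD, n = 3 each), a ratio of 0.615. Unlisted chains are missing from these sums.

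Among the genes of proline hydroxylation, 4 listed genes were lower and CRTAP was higher. P4HA1 and P4HA3 encode catalytic subunits of prolyl 4-hydroxylase, which stabilises the triple helix. P4HA1 fell from 3005 ± 221 to 1957 ± 114 and P4HA3 from 425 ± 18.7 to 171 ± 28.2 (SD, n = 3 each), by limma -0.62 and -1.32 on the log2 scale. The prolyl 3-hydroxylases P3H1 and P3H2 fell from 2472 ± 40.4 to 1762 ± 73.6 and from 1800 ± 79.1 to 913 ± 77.1 (SD, n = 3 each), by limma -0.49 and -0.98 on the log2 scale. CRTAP, a non-catalytic partner of P3H1, stood at 5465, 5356 and 5469 in sh-Control and at 6088, 6258 and 5938 in sh-METTL3. Its means were 5430 ± 64.4 and 6094 ± 160.0 (SD, n = 3 each), with a log2 fold change of 0.17 (SE 0.0477, adjusted p 0.0199 by limma). This small difference did not pass in 4 of 14 alternatives, those without sh-Control replicate 2 or 3 or without sh-METTL3 replicate 1 or 2, where the adjusted p ran from 0.0516 to 0.095.

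Both collagen chaperones were lower. SERPINH1 (ENSG00000149257, chromosome 11, 75562056 to 75572783, plus strand) encodes HSP47, which binds the folded procollagen helix in the endoplasmic reticulum. It stood at 11101, 11907 and 11068 in sh-Control and at 3867, 3981 and 3739 in sh-METTL3. Its means were 11359 ± 475 and 3862 ± 121 (SD, n = 3 each), with a log2 fold change of -1.56 (SE 0.0531, adjusted p 4.32e-08 by limma). FKBP10, a prolyl isomerase of the endoplasmic reticulum, fell from 12948 ± 749 to 6916 ± 163 (SD, n = 3 each), by limma -0.90 on the log2 scale. Neither gene had overlapping groups.

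Of the 4 listed genes of propeptide removal 3 were higher, a small count beside the 46.6% of all listed genes that were higher. ADAMTS2 (ENSG00000087116, chromosome 5, 179110851 to 179345430, minus strand) encodes a protease that removes the N-propeptide of fibrillar procollagens. It had 2, 1 and 4 reads in sh-Control, and its scaled counts were 738, 722 and 645 in sh-METTL3. The sh-Control libraries were thus near 0 and the sh-METTL3 libraries were alike. Its means were 2.1 ± 1.46 and 702 ± 49.7 (SD, n = 3 each), with a log2 fold change of 7.92 (SE 0.307, adjusted p 8.76e-08 by limma), which was 8.52 with a pseudocount of 0.1. ADAMTS14, a related protease, stood at 88.5, 89.4 and 86 in sh-Control and at 169.8, 164 and 163 in sh-METTL3. Its means were 88 ± 1.75 and 166 ± 3.6 (SD, n = 3 each), with a log2 fold change of 0.91 (SE 0.133, adjusted p 0.000426 by limma). ADAMTS3, the third of these proteases, fell from 113 ± 9.86 to 49.7 ± 7.12 (SD, n = 3 each), by limma -1.17 on the log2 scale. PCOLCE, which enhances removal of the C-propeptide, stood at 119, 117 and 114 in sh-Control and at 178, 157 and 169 in sh-METTL3. Its means were 117 ± 2.45 and 168 ± 10.5 (SD, n = 3 each), with a log2 fold change of 0.52 (SE 0.129, adjusted p 0.00945 by limma). An antisense gene, PCOLCE-AS1, covers 16.6% of the exonic bases of PCOLCE, and since no source used here says whether the counting used strand, reads of these genes may be mixed.

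The lysyl oxidases, which create the aldehydes that cross-link collagen and elastin, did not all go the same way. LOX (ENSG00000113083, chromosome 5, 122063195 to 122078360, minus strand) stood at 43161, 48584 and 49822 in sh-Control and at 19177, 20408 and 21935 in sh-METTL3. Its means were 47189 ± 3543 and 20506 ± 1381 (SD, n = 3 each), with a log2 fold change of -1.20 (SE 0.0793, adjusted p 2.17e-06 by limma). LOXL4 stood at 176, 185 and 167 in sh-Control and at 66.2, 74.7 and 56 in sh-METTL3, and neither gene had overlapping groups. The means of LOXL4 were 176 ± 9.06 and 65.7 ± 9.39 (SD, n = 3 each), with a log2 fold change of -1.42 (SE 0.16, adjusted p 7.22e-05 by limma). LOXL1 stood at 6747, 7688 and 6693 in sh-Control and at 7607, 8133 and 9481 in sh-METTL3, and its groups overlapped. Its means were 7042 ± 559 and 8407 ± 966 (SD, n = 3 each), with a log2 fold change of 0.25 (SE 0.0856, adjusted p 0.0445 by limma). This did not pass in 6 of 14 alternatives, with adjusted p of 0.172 and 0.174 without sh-Control replicate 1 or 3 and of 0.0804 and 0.104 without sh-METTL3 replicate 2 or 3. Without sh-METTL3 replicate 3 its log2 fold change was 0.16. An antisense gene, LOXL1-AS1, covers 9.21% of its exonic bases. Per kilobase of exon LOX stood at 8507 in sh-Control and 3697 in sh-METTL3, above LOXL1 at 1936 and 2312.

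**Figure D3:**
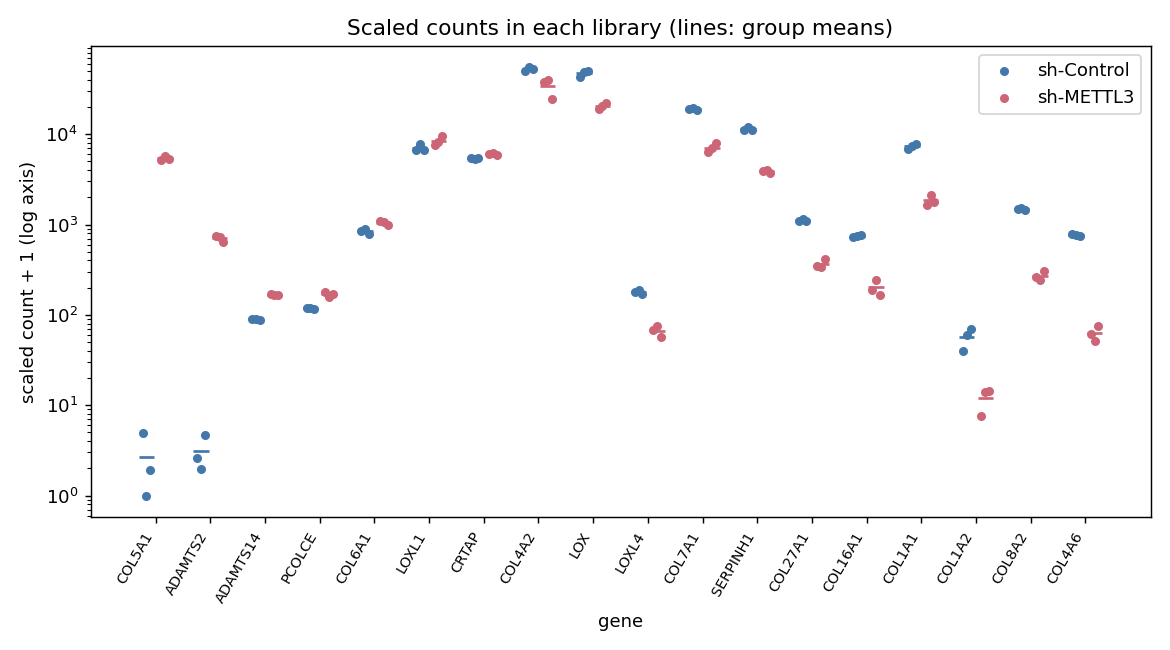
Scaled count plus 1 (log axis) in each of the 6 libraries for the 18 genes given value by value under the naming rule. COL5A1 and ADAMTS2 lie near the foot of the axis in every sh-Control library, and LOXL1 is the gene whose groups overlap.

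Other genes that bind, degrade, export or regulate collagen came from a separate list of 88 symbols, of which 49 were in the table. By limma 38 of these were lower, 10 were higher and 1 did not pass (HSP90B1, log2 fold change -0.20, adjusted p 0.0537), with a median log2 fold change of -0.57. Of all listed genes 51.3% were lower with a median of -0.21, and of the listed protein-coding genes 55.1% with a median of -0.25. Genes of folding and export had 9 lower of 10 listed, those of degradation 7 of 9, assembly partners 6 of 8, genes around TGF-β signalling 9 of 11, receptors 4 of 6, and genes of proline and vitamin C supply 3 of 5. The 2 higher genes of the degradation list, TIMP2 and TIMP3, encode inhibitors of metalloproteinases (by limma 0.38 and 0.64 on the log2 scale). These list counts are small, and the shares of the receptors (66.7%) and of the supply genes (60%) lie near that of the listed protein-coding genes. Among the listed pathway genes with a mean of at least 100, the largest falls were in a gelatinase, a matrix glycoprotein and a receptor subunit. The gelatinase gene MMP9 fell from 156 ± 6.86 to 5.95 ± 2.7, TNC (tenascin-C) from 341 ± 21.1 to 20.5 ± 9.47, and ITGA2, a subunit of a collagen-binding integrin, from 1237 ± 35.2 to 298 ± 37.2 (SD, n = 3 each). TGFBI, a matrix protein induced by TGF-β, rose from 99582 ± 5772 to 199749 ± 4355, TGFBR3, a co-receptor, from 151 ± 16.5 to 246 ± 17.7, and MATN2, a filament-forming matrilin, from 5788 ± 299 to 9099 ± 562 (SD, n = 3 each).

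Markers of cell types are given beside these values, and their counts are to be read against the 51.3% of all listed genes that were lower and the 46.6% that were higher. Of 19 RPE markers 10 were listed, with BEST1, PMEL, SERPINF1 and CLDN19 lower and KRT8, KRT18, MITF, RDH5, RDH10 and LRAT higher. Their summed scaled count ran from 22672 to 24473 in sh-Control and from 36115 to 39524 in sh-METTL3. Most of this sum came from the keratins KRT8 (means 10761 and 22324) and KRT18 (means 5980 and 7969), which are not particular to the RPE. RPE65 and RLBP1 were not listed, so the label could be checked only in part. Of 17 fibroblast or mesenchymal markers 8 were listed, 5 lower and 3 higher, and their sum, most of it VIM, ran from 54051 to 56870 and from 92478 to 106054. Of 9 epithelial markers 5 were listed, 4 lower and KRT7 higher, with sums from 42670 to 44885 and from 53792 to 66594, most of them KRT7 (means 35919 and 55942). Of 6 leukocyte markers CD14 and ITGAM were listed, with sums from 102 to 122 and from 6.72 to 17.7, and of 5 endothelial markers 0 were listed. The part of these markers in the collagen values was not tested.

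The 32 genes lie on 15 chromosomes, and each was set beside its listed protein-coding neighbours with a start within 5 Mb, the other genes of the set left out. SERPINH1 and P4HA3 lie near each other on chromosome 11. Around SERPINH1, 88.9% of 54 neighbours had a negative log2 fold change, with a median of -0.65, against -1.56 for the gene itself. Around P4HA3 it was 88.1% of 59, with a median of -0.62, against -1.32. Their surroundings were thus lower too, by less than the genes themselves. Away from chromosome 11 the medians ran from -0.51 to 0.37. Of the 25 lower genes, 7 had neighbours with a median above 0, namely P4HA1, LOXL4, COL1A1, COL1A2, COL8A2, COL4A5 and COL4A6. The part of position in these values was not tested.

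**Figure D4:**
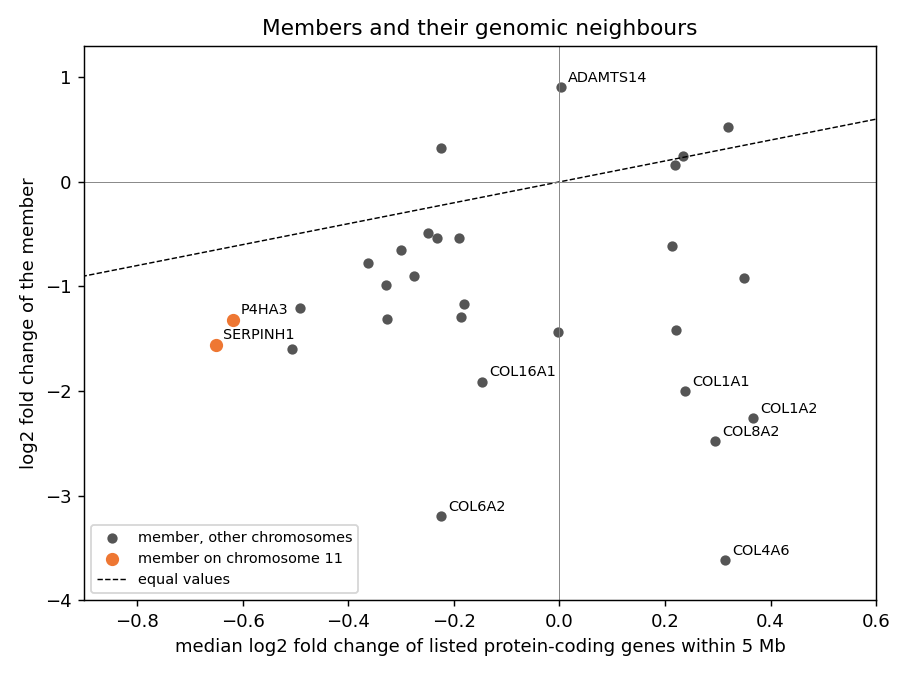
Log2 fold change of each gene (y axis) against the median log2 fold change of its listed protein-coding neighbours within 5 Mb (x axis), without COL5A1 and ADAMTS2, which lie beyond the y axis. SERPINH1 and P4HA3, on chromosome 11, have the lowest neighbour medians, while COL1A1, COL1A2, COL8A2 and COL4A6 lie low although their neighbour medians are above 0.

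GGACT, the DNA spelling of a sequence that the METTL3 complex often methylates, was counted on the sense strand of the longest protein-coding transcript of each gene in GENCODE release 29. The 32 genes had a median of 1.24 per kilobase and the 17 chains 1.54 (range 0.578 to 2.93), against 0.936 (quartiles 0.581 and 1.38) in 6736 listed protein-coding genes. The 7 higher genes had a median of 1.42 (range 0 to 1.76) and the 25 lower genes 1.18 (range 0.44 to 2.93). COL7A1 held 20 copies, COL4A5 held 19, COL5A1 held 12 and LOXL1 held 0. The counts were not adjusted for the base composition of the transcripts, and methylation of these sites was not measured in these libraries.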

How the data were processed

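RNA sequencing of 6 libraries was analysed from 1 table. The submitters' processing notes name HISAT2 2.0.5 and hg38, while the study's methods name Cufflinks with RefSeq mRNAs. The read counter and strandedness are not given in the sources used here. Start and end of all 7758 genes equalled GENCODE release 29. The authors deposited a signal per gene and library, which is the read count over the size factor of that library, and 100% of the values came out as whole reads within 0.01. They also deposited group means and their own log2 fold change, p-value and adjusted p-value per gene. None of these was used, except that the ratio of the deposited p-values gave the number of tests, 22977. Library depth is unknown, since only listed genes are held.

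limma 3.58.1 (R 4.3.3) with an intensity trend was fitted to log2 of the scaled count plus a pseudocount of 1 on all 7758 genes, with no filter and no covariates. Beside a pseudocount of 0.1, this scale gave smaller differences for weakly expressed genes, such as -3.19 against -4.59 for COL6A2. Beside count tests it did not always do so: COL6A2 was at -2.96 by edgeR and -2.95 by DESeq2, both with the authors' size factors. Benjamini-Hochberg adjustment covered 22977 tests, at a threshold of 0.05. Alternatives were edgeR 4.0.16 quasi-likelihood tests (size factors of the authors, TMM or RLE) and the DESeq2 1.42.0 Wald test on the recovered reads, a pseudocount of 0.1, a minimum mean of 50, a block for the replicate number, adjustment over the listed genes alone, and fits without each library. The fit was also run on simulated counts in which only a small part of the genes differed. Nearly every listed gene passed in the real data, so that run says nothing about the calls given here.

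The genes, their roles and all lists were chosen with earlier results of these data known. Every listed gene was to be named, with library values for the 8 largest rises and falls at a mean of at least 100 in either group, and for COL1A1, COL1A2, COL3A1, COL4A1, COL4A2 and LOX where listed. Only 7 genes rose. Of the other pathway genes the 3 largest rises and falls at that mean were named. Library values of COL4A5, reads of COL6A2, pairs of partners and single GGACT counts were added after their values were seen. Single results for 1 of the 32 genes are not reported here. Of the 32 genes, 12 share exonic bases with another annotated gene.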

Additional observations from a re-analysis of the deposited data

How the results depend on the processing

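Across 14 alternatives the number of higher genes ran from 5 to 7 and that of lower genes from 23 to 25, and no gene changed direction. Leaving out 1 library gave from 5 to 6 higher genes, from 24 to 25 lower genes, medians from -0.99 to -0.91 for the 32 genes and from -1.69 to -1.54 for the fibrillar chains. The median of -0.95 became -0.83 with edgeR and RLE factors, which also moved the median of all listed genes from -0.21 to -0.09. In 29 of the 32 genes the call was the same in every alternative that gave a value. The exceptions were LOXL1 (adjusted p from 0.00525 to 0.174), CRTAP (from 0.00142 to 0.095) and COL9A2 (from 0.00608 to 0.0922). The minimum mean of 50 left out COL1A2 and COL6A2. With the replicate block 7 genes were higher and 25 lower, as without it. Same-numbered libraries deviated from their group means with correlations of 0.00361, 0.0193 and -0.015, so no pairing was seen. Since entry to the table required a call on these libraries, stability across alternatives says little. Read depth limits COL6A2, COL1A2 and the sh-Control levels of COL5A1 and ADAMTS2. The causes of the lost calls were not tested.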
